A study of Homo sapiens with 12 samples.

Results

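Expression of 6 genes of the plasminogen activator system was examined, as given by the rows of the deposited expression table that carry the symbols PLAU, PLAUR, PLAT, SERPINE2, SERPINB2 and ANXA2. Each symbol had 1 row, so that the set held 6 of the 24331 rows. The genes were chosen by name, with earlier results of these data known. The table covered MDA-MB-231, a human triple-negative breast cancer cell line, as wild-type cells (WT) and as cells in which CRISPR/Cas9 had removed NFAT and NF-κB binding sites of the core-regulatory element upstream of ETS1 (ΔCRE, labelled KO). Both kinds of cells were harvested without stimulation (0 h) and after 6 and 24 h of PMA (a phorbol ester that activates protein kinase C) plus Ionomycin (a calcium ionophore), with 2 biological replicates in each of 6 groups and 12 libraries in all. ΔCRE cells were obtained by screening clones, and the number of clones behind the libraries is not given in the sources used here, so that an effect of the deletion and a difference of a clone cannot be told apart.

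The plasminogen activators are serine proteases that cut the proenzyme plasminogen into plasmin, a broad protease that degrades fibrin and matrix proteins and activates other proteases. Urokinase (PLAU) acts mainly at the cell surface, where its receptor uPAR (PLAUR) holds it, whereas tissue-type activator (PLAT) is best known for dissolving clots. Serpins such as PAI-2 (SERPINB2) and protease nexin-1 (SERPINE2) inactivate the activators by forming covalent complexes with them, and annexin A2 (ANXA2), together with its partner S100A10, binds plasminogen and PLAT on the surface. Urokinase and uPAR are long known for their link to invasion of breast cancer cells.

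ETS1, whose upstream region was targeted, was 24.0 and 23.7 FPKM in the WT libraries at 0 h, 139.2 and 145.2 FPKM at 6 h and 36.2 and 39.7 FPKM at 24 h (FPKM, fragments scaled to transcript length and library size). In ΔCRE cells ETS1 was 16.5 FPKM at 0 h in replicate 2, 62.8 and 62.2 FPKM at 6 h and 29.3 and 30.7 FPKM at 24 h. Every one of these ΔCRE libraries was below both WT libraries of its time point, and the log2 difference was −0.51 at 0 h, −1.17 at 6 h and −0.33 at 24 h (adjusted p = 0.0132, 2.0e-05 and 0.0153). The library labelled ΔCRE 0 h replicate 1 stood apart from the other 11. Its 7 markers of gut epithelium summed to 8969 FPKM against at most 0.371 FPKM elsewhere, its 5 markers expected to be low in MDA-MB-231 (ESR1, PGR, ERBB3, CDH1 and EPCAM) summed to 1235 FPKM against between 2.78 and 4.38 FPKM, and its FPKM sum was 1423335 against between 566255 and 651080. In the 11 libraries the 5 markers expected in the line (VIM, CD44, CAV1, AXL and MSN) were all above 0 in each and summed to between 2149 and 3337 FPKM. In the library that stood apart these 5 markers were above 0 too and summed to 1496 FPKM. Its 5 fibroblast markers summed to 68.9 FPKM against at most 1.65 FPKM in the 11. Its 5 immune markers summed to 386 FPKM against at most 0.783 FPKM. The source of its RNA was not tested. The library that stood apart was therefore left out of the tests, and its values are given separately. Depth relative to WT 0 h replicate 1, read from the smallest steps of low FPKM values, was between 0.730 and 1.19 in the 11 libraries and lowest in the ΔCRE 6 h libraries, at 0.730 and 0.820. The absolute number of reads is unknown.

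Groups were compared by limma's moderated test on log2(FPKM + 1) in 1 model of the 11 libraries, over the 11256 rows with a mean of at least 1 FPKM. The Benjamini-Hochberg adjustment covered all these rows, and an adjusted p under 0.05 counted as a call. All log2 differences below are on this scale, on which a fold change at low FPKM comes out too small. At 0 h the ΔCRE group holds 1 library, which is assumed to vary like the other groups. In RNA from whole cultures, fewer expressing cells and less RNA per cell cannot be told apart.

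Promoter sequences of 5 of the 6 genes matched the RefSeq promoter table (assembly GRCh38.p14, 250 bases before to 50 bases after a start). PLAT was not matched. Each record matched GRCh37, the build of the deposited table, exactly once. The 4 sequences below are of the receptor, the urokinase gene, 1 serpin and the surface receptor for plasminogen. They are shown because these genes were higher at 6 h of stimulation than at 0 h but differed in the motifs their starts hold. For the serpin, SERPINB2, that rise is no independent result, as the gene passed the filter only through stimulated libraries. Capitals mark matches to TGANTCA (AP-1), AGGAAG (ETS) and TATAAA (the core of a TATA box), searched on both strands together with the NF-κB consensus, and no 2 marked matches overlap. They read 5′ to 3′ on the strand of the gene: PLAUR at chr19:44174272-44174571 (minus strand), SERPINB2 at chr18:61554689-61554988 (plus strand), ANXA2 at chr15:60690136-60690435 (minus strand) and PLAU at chr10:75670640-75670939 (plus strand).
PLAUR: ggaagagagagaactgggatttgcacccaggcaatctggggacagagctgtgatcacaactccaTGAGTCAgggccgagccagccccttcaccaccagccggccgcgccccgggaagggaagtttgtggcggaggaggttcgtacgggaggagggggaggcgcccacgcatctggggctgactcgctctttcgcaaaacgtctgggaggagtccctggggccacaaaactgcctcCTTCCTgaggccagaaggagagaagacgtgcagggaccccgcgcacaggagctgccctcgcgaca
SERPINB2: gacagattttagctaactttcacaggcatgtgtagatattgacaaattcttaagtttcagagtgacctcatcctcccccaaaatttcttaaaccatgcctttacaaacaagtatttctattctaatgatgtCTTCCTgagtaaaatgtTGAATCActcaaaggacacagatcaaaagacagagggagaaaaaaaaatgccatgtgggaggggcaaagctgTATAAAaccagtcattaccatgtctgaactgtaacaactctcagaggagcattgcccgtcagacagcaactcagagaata
ANXA2: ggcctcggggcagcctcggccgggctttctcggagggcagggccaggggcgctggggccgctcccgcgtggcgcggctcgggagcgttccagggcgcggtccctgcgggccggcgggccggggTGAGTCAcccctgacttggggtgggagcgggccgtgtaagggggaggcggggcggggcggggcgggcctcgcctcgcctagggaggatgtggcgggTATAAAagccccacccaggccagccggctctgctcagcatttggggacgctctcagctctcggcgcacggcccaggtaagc
PLAU: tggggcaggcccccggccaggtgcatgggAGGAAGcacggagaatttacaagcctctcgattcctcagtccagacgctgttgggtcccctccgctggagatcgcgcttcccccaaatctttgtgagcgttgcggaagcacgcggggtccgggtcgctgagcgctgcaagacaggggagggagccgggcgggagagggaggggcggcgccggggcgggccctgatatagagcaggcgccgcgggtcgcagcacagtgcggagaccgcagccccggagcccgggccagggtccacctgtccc
AP-1 letters began 186 bases before the start in PLAUR, 102 bases before it in SERPINB2 and 127 bases before it in ANXA2. They were in neither of the 2 records of PLAU nor in either of the 2 records of SERPINE2. For comparison, 7.71% of 35116 promoters of the same length hold the AP-1 letters, 33.6% the ETS letters, 11.5% the TATA letters and 5.91% the NF-κB consensus, which none of the 7 records held. ETS letters lay 221 bases before the start in the PLAU record shown, and on the opposite strand in PLAUR and SERPINB2. TATA letters lay 30 bases before the start of SERPINB2 and 31 bases before that of ANXA2. The PLAU record that is not shown and both records of SERPINE2 held none of these motifs. A match describes the letters only.

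The urokinase gene PLAU (chr10:75669727-75682535 in the table, hg19) rose at 6 h and then fell below its starting level. In WT cells PLAU was 201.8 and 190.0 FPKM at 0 h, 380.4 and 381.9 FPKM at 6 h and 82.5 and 79.9 FPKM at 24 h. PLAU in ΔCRE cells was 246.5 FPKM at 0 h in replicate 2, 457.1 and 446.6 FPKM at 6 h and 71.7 and 69.7 FPKM at 24 h. The ΔCRE libraries lay above both WT libraries at 0 and 6 h and below both at 24 h. WT cells rose 1.95-fold from 0 to 6 h (log2 difference 0.96, standard error 0.050, adjusted p = 2.2e-06) and fell to 41.5% of the 0 h level at 24 h (log2 difference −1.26, adjusted p = 4.9e-07). In ΔCRE cells PLAU at 24 h was 15.7% of its 6 h level (log2 difference −2.66, adjusted p = 2.6e-08), against 21.3% in WT cells (log2 difference −2.22, adjusted p = 5.3e-08). The row shares its span with C10orf55, a long non-coding RNA on the opposite strand that has a row of its own at between 0.287 and 1.27 FPKM. The libraries were stranded, and whether the counting used strand is not given in the sources used here.

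The urokinase receptor gene PLAUR (chr19:44150247-44174498) also peaked at 6 h but stayed above its starting level at 24 h. PLAUR in WT cells was 77.4 and 69.3 FPKM at 0 h, 376.4 and 377.6 FPKM at 6 h and 218.6 and 212.5 FPKM at 24 h. PLAUR in ΔCRE cells was 85.4 FPKM at 0 h in replicate 2, 359.1 and 347.1 FPKM at 6 h and 279.6 and 258.3 FPKM at 24 h. The ΔCRE libraries were above both WT libraries at 0 and 24 h and below both at 6 h. The rise in WT cells from 0 to 6 h was 5.14-fold (log2 difference 2.35, standard error 0.065, adjusted p = 4.1e-08), and at 24 h the level was still 2.94-fold that at 0 h (log2 difference 1.54, adjusted p = 6.9e-07). From 6 to 24 h PLAUR fell in both kinds of cells, by 0.80 in WT and by 0.39 in ΔCRE on the log2 scale (adjusted p = 4.3e-05 and 0.0014). The difference between these falls was 0.41 (adjusted p = 0.255). The library that stood apart had 119.3 FPKM of PLAUR, above all 3 other libraries at 0 h. As a share of its FPKM sum this was 0.00838%, below all 3.

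The tissue-type activator gene PLAT (chr8:42032236-42065194) was the member with the largest difference between genotypes at 6 and at 24 h. In WT cells PLAT was 8.82 and 9.50 FPKM at 0 h, 45.4 and 43.8 FPKM at 6 h and 25.2 and 23.9 FPKM at 24 h. In ΔCRE cells PLAT was 6.92 FPKM at 0 h in replicate 2, 12.6 and 11.1 FPKM at 6 h and 12.2 and 10.9 FPKM at 24 h. At each time point the ΔCRE libraries were below both WT libraries, and the stimulated ΔCRE libraries lay closer to unstimulated than to stimulated WT cells. The WT level rose 4.87-fold from 0 to 6 h (log2 difference 2.17, standard error 0.079, adjusted p = 2.5e-07). In ΔCRE cells the 6 h mean was 1.71 times the 0 h replicate 2 value, a ratio that rests on 1 library at 0 h, and the 6 and 24 h libraries overlapped (log2 difference −0.03, 95% confidence interval −0.21 to 0.15, adjusted p = 0.772). PLAT was 3.90 FPKM in the library that stood apart.

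Among the inhibitors, SERPINE2, which encodes protease nexin-1 (chr2:224839765-224904036), followed the time course of PLAUR at a lower level. SERPINE2 in WT cells was 10.5 and 10.2 FPKM at 0 h, 32.6 and 35.2 FPKM at 6 h and 17.8 and 17.0 FPKM at 24 h. SERPINE2 in ΔCRE cells was 12.4 FPKM at 0 h in replicate 2, 28.6 and 31.0 FPKM at 6 h and 19.5 and 20.0 FPKM at 24 h. As with PLAUR, the ΔCRE libraries were above both WT libraries at 0 and 24 h and below both at 6 h. WT cells rose 3.27-fold from 0 to 6 h (log2 difference 1.62, standard error 0.064, adjusted p = 4.2e-07) and were 1.68-fold above 0 h at 24 h (log2 difference 0.69, adjusted p = 4.7e-05). From 6 to 24 h SERPINE2 fell by 0.92 in WT and by 0.57 in ΔCRE cells on the log2 scale (adjusted p = 2.1e-05 and 1.9e-04). The library that stood apart had 27.6 FPKM of SERPINE2.

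SERPINB2, which encodes PAI-2 (chr18:61554939-61571124), was listed at 0 in all 0 h libraries, the one that stood apart included, and at low values in every stimulated library. SERPINB2 in WT cells was 2.03 and 1.53 FPKM at 6 h and 1.49 and 1.61 FPKM at 24 h. SERPINB2 in ΔCRE cells was 1.58 and 0.824 FPKM at 6 h and 1.73 and 1.34 FPKM at 24 h. Genotypes overlapped at both stimulated time points. With a mean of 1.10 FPKM over the 11 libraries, SERPINB2 passed the filter only through the stimulated groups, so no fold against 0 h is given. A listed 0 can be a failed estimate, as 44 rows were at 100 FPKM or more in 1 library and at 0 in another, although none of 10 housekeeping genes was at 0. In GENCODE an unnamed coding gene overlaps SERPINB2 on the same strand.

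ANXA2, which encodes the plasminogen-binding annexin A2 (chr15:60639350-60690185), had the highest level of the 6 genes in every library. ANXA2 in WT cells was 1809 and 1678 FPKM at 0 h, 2425 and 2494 FPKM at 6 h and 2043 and 1992 FPKM at 24 h. ANXA2 in ΔCRE cells was 1695 FPKM at 0 h in replicate 2, 2543 and 2386 FPKM at 6 h and 2446 and 2310 FPKM at 24 h. The genotypes overlapped at 0 and 6 h, and at 24 h both ΔCRE libraries were above both WT libraries. WT cells rose 1.41-fold from 0 to 6 h (log2 difference 0.50, standard error 0.063, adjusted p = 3.7e-04) and at 24 h were 1.16-fold above 0 h (log2 difference 0.21, adjusted p = 0.0205). The call at 24 h was lost without WT 0 h replicate 2, WT 24 h replicate 1 or WT 24 h replicate 2 (adjusted p between 0.0167 and 0.110 when each library was left out in turn). The processed pseudogene ANXA2P2, which could share reads with ANXA2, had a row of its own at between 56.1 and 95.7 FPKM in the 11 libraries. ANXA2 ranked between 32 and 51 among all rows and held between 0.294% and 0.402% of the FPKM sum, and in the library that stood apart it was 3377 FPKM.

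**Figure D1:**
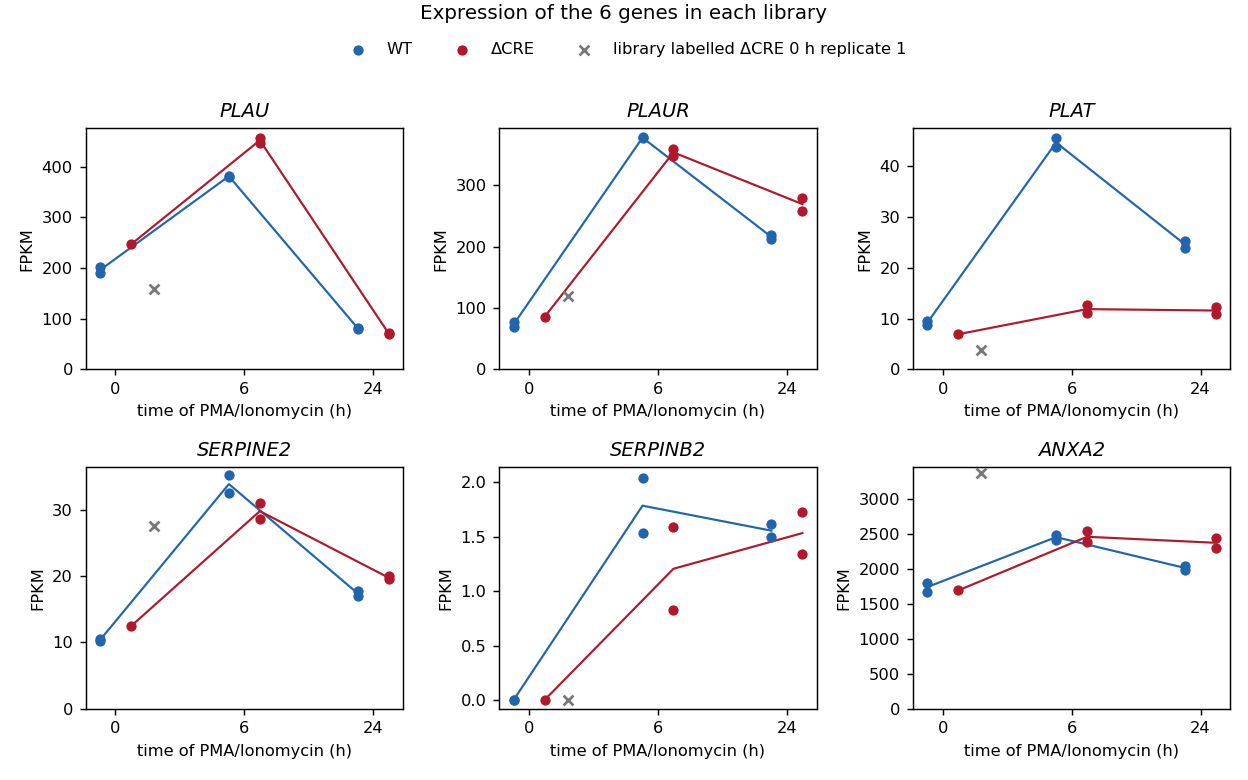
Expression of the 6 genes by library. Each panel plots FPKM against hours of PMA/Ionomycin, evenly spaced, for WT (blue) and ΔCRE (red) libraries as points with lines through the group means, and the library labelled ΔCRE 0 h replicate 1 as a grey cross. PLAT reached 45.4 and 43.8 FPKM in WT cells at 6 h against 12.6 and 11.1 FPKM in ΔCRE cells, whereas PLAU peaked at 6 h and was lowest at 24 h in both.

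In WT cells the 5 members other than SERPINB2 were all higher at 6 h than at 0 h, in a comparison that called 44.4% of all tested rows (2620 higher and 2373 lower). At 24 h against 0 h, PLAUR, PLAT, SERPINE2 and ANXA2 were higher and PLAU was lower, where 54.6% of all rows were called. These comparisons share the 0 h libraries. From 6 to 24 h all 5 fell in WT cells, by between 0.29 for ANXA2 and 2.22 for PLAU on the log2 scale, where 46.8% of all rows were called. In ΔCRE cells PLAU, PLAUR and SERPINE2 fell from 6 to 24 h, where 49.6% of all rows were called. PLAT, ANXA2 (log2 difference −0.05, adjusted p = 0.528) and SERPINB2 (log2 difference 0.22, adjusted p = 0.323) did not pass the test there. With calls this common, the number of members called does not set them apart from other rows.

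The order of the group means differed between members. These orders are descriptions, as 54.6% of tested rows at 6 h and 51.8% at 24 h had no overlap between genotypes. Of the steps between genotypes of PLAUR and SERPINE2, only that of PLAUR at 24 h passed limma's test. The steps of PLAU at 24 h, PLAT at 0 h and ANXA2 at 24 h did not pass it (adjusted p = 0.0572, 0.126 and 0.0670). Every rank of ΔCRE at 0 h rests on 1 library. PLAU was highest in ΔCRE cells at 6 h, followed by WT at 6 h, ΔCRE at 0 h, WT at 0 h, WT at 24 h and ΔCRE at 24 h, with no overlap between the libraries of neighbours in that order. PLAUR and SERPINE2 shared 1 order, WT at 6 h, ΔCRE at 6 h, ΔCRE at 24 h, WT at 24 h, ΔCRE at 0 h and WT at 0 h, again without overlap between neighbours. PLAT was ordered WT at 6 h, WT at 24 h, ΔCRE at 6 h, ΔCRE at 24 h, WT at 0 h and ΔCRE at 0 h, and of these neighbours the libraries of ΔCRE at 6 h and ΔCRE at 24 h overlapped. For ANXA2 the first 3 groups, ΔCRE at 6 h, WT at 6 h and ΔCRE at 24 h, overlapped with their neighbours, WT at 24 h lay apart below them, and WT and ΔCRE at 0 h overlapped. The 4 stimulated groups of SERPINB2 overlapped with their neighbours throughout.

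The question of the design was what changed in cells without the ETS1 element. Compared with WT cells, ΔCRE cells had less PLAT and more PLAU at 6 h, less PLAT and more PLAUR at 24 h, and more PLAU at 0 h. The other members did not pass the test at these times. Only the 6 and 24 h calls of PLAT held in every fit with a library left out. The call of PLAU at 0 h rests on 1 ΔCRE library. Non-overlap of the 2 libraries of each genotype was common in the table, at 54.6% of tested rows at 6 h and 51.8% at 24 h, and so is no result on its own.

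PLAT in ΔCRE cells was 3.76-fold lower than in WT cells at 6 h (log2 difference −1.83, standard error 0.079, adjusted p = 1.3e-05) and 2.12-fold lower at 24 h (log2 difference −1.02, standard error 0.079, adjusted p = 3.2e-04). Both calls held when each of the 11 libraries was left out in turn, with an adjusted p of at most 3.3e-04 at 6 h and 0.00637 at 24 h. At 0 h the value of the 1 ΔCRE library was 75.6% of the WT mean (log2 difference −0.36, adjusted p = 0.126). The comparison at 6 h called 9.83% of all rows (407 higher and 700 lower in ΔCRE cells), that at 24 h 6.33% (265 higher and 447 lower) and that at 0 h 1.69% (74 higher and 116 lower). The rise from 0 to 6 h was smaller in ΔCRE than in WT cells by 1.47 on the log2 scale (standard error 0.13, adjusted p = 0.0014), in a test that called 0.267% of all rows and rests on 1 ΔCRE library at 0 h. The change from 6 to 24 h also differed, by 0.80 on the log2 scale (standard error 0.11, adjusted p = 0.0468), where 0.16% of all rows were called. That last call was close to the threshold and held in 1 of 11 fits with a library left out, the one without ΔCRE 0 h replicate 2 (adjusted p between 0.0405 and 0.230). With the library that stood apart in the fit, PLAT passed the test at 6 h (adjusted p = 0.0171) but not at 24 h (adjusted p = 0.226), and neither difference of the responses passed.

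PLAU differed less. It was 1.26-fold higher in ΔCRE cells at 0 h (log2 difference 0.33, standard error 0.061, adjusted p = 0.0403) and 1.19-fold higher at 6 h (log2 difference 0.24, standard error 0.050, adjusted p = 0.0191). At 24 h it was 87.1% of the WT level (log2 difference −0.20, 95% confidence interval −0.31 to −0.08, adjusted p = 0.0572). The change of the difference between 6 and 24 h was −0.44 on the log2 scale (adjusted p = 0.0775). The call at 0 h held in none of the 10 fits with a library left out (adjusted p between 0.0514 and 0.110). The call at 6 h was lost without either WT 6 h library and without either ΔCRE 6 h library (adjusted p between 0.0173 and 0.116 over all 11 such fits). Neither call held with the library that stood apart in the fit, which put the difference at 0 h at 0.017.

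PLAUR was 1.25-fold higher in ΔCRE cells at 24 h (log2 difference 0.32, standard error 0.065, adjusted p = 0.0273), and this call was lost in 6 of 11 fits, those without a WT 6 h, a WT 24 h or a ΔCRE 24 h library (adjusted p between 0.0188 and 0.143), as well as with the library that stood apart in the fit (adjusted p = 1.0). At 6 h PLAUR differed by −0.09 (95% confidence interval −0.24 to 0.05, adjusted p = 0.430) and at 0 h by 0.22 (adjusted p = 0.246). For SERPINE2 the differences were 0.24 at 0 h, −0.18 at 6 h and 0.18 at 24 h (adjusted p = 0.195, 0.128 and 0.159). SERPINB2 differed by −0.35 at 6 h with a wide 95% confidence interval from −0.74 to 0.04 (adjusted p = 0.259) and by −0.02 at 24 h (adjusted p = 0.976). ANXA2 differed by −0.04 at 0 h, by 0.00 at 6 h (95% confidence interval −0.14 to 0.15) and by 0.24 at 24 h (adjusted p = 0.871, 0.991 and 0.0670).

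**Figure D2:**
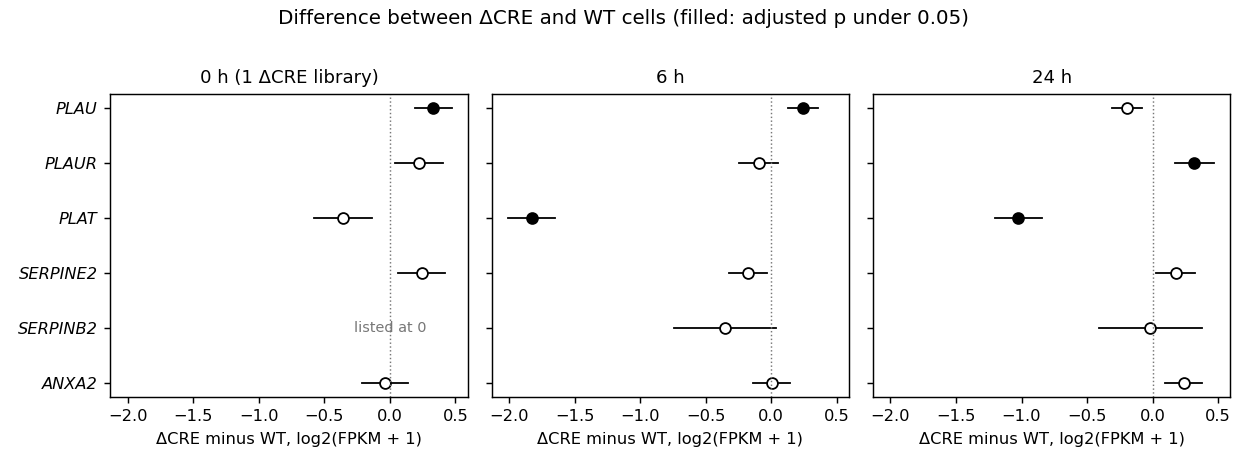
Differences between ΔCRE and WT cells for the 6 genes. Each panel plots the log2(FPKM + 1) difference at 0, 6 or 24 h as a point with its 95% confidence interval from limma, filled where the adjusted p was under 0.05, and SERPINB2 is listed at 0 at 0 h. PLAT lies farthest from 0, at −1.83 at 6 h and −1.02 at 24 h, and PLAU moves from 0.24 at 6 h to −0.20 at 24 h.

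PLAU lies in a stretch of chromosome 10 in which most genes were higher in ΔCRE cells. Of 56 tested rows starting within 5 Mb of it, 51 were higher at 6 h and 53 at 24 h in ΔCRE cells, with median log2 differences of 0.35 and 0.38. At 6 h 34 of the 56 passed the test, 32 of them higher, and at 24 h 35 passed, all of them higher. PLAU, at 0.24, was within the range of its neighbours at 6 h and below 42 of them. At 24 h PLAU, at −0.20, was 0.57 below their median, and 55 of the 56 neighbours had a higher value. The share of the neighbourhood in the PLAU differences was not tested.

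Neighbours of the other members moved less. Around PLAT 34 tested rows had medians of −0.17 at 6 h and −0.10 at 24 h, and all 34 had a higher value than PLAT at both times. Of these 34 rows, 3 were higher in ΔCRE cells at 6 h and 5 at 24 h, so most shared the direction of PLAT. At 6 h 6 of them passed the test, 1 as higher, and at 24 h 2 passed, 0 as higher. The share of the neighbourhood in the PLAT differences was not tested. PLAUR had 159 neighbours with medians of −0.00 and −0.05, and 4 of them were above it at 24 h. For SERPINE2 (34 neighbours), SERPINB2 (14) and ANXA2 (44), the medians lay between −0.03 and 0.06.

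**Figure D3:**
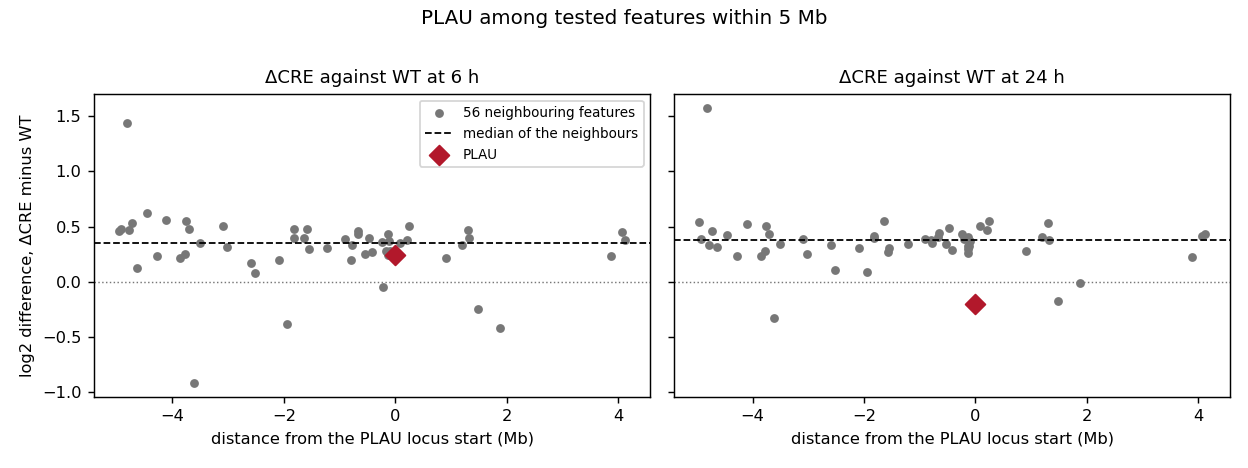
PLAU among its neighbours on chromosome 10. The log2 difference between ΔCRE and WT cells is plotted against the distance from the start of PLAU in Mb at 6 h (left) and 24 h (right), with grey points for 56 neighbouring rows, a dashed line for their median and a red diamond for PLAU. The dashed line is at 0.35 and 0.38, and PLAU is near it at 6 h (0.24) but far below it at 24 h (−0.20).

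Ratios of FPKM within a library, which do not depend on its scaling, showed how the balance of the members moved. PLAU relative to PLAUR was 2.61 and 2.74 in WT cells at 0 h, 1.01 in both libraries at 6 h and 0.377 and 0.376 at 24 h. In ΔCRE cells this ratio was 2.89 at 0 h, 1.27 and 1.29 at 6 h and 0.257 and 0.270 at 24 h. Receptor transcripts thus overtook urokinase transcripts between 6 and 24 h in both kinds of cells.

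The balance of both activators differed more between genotypes. PLAU relative to PLAT in the WT libraries was 22.9 and 20.0 at 0 h, 8.38 and 8.72 at 6 h and 3.27 and 3.35 at 24 h. In ΔCRE cells it was 35.6 at 0 h, 36.3 and 40.1 at 6 h and 5.87 and 6.38 at 24 h. The ΔCRE ratio was therefore above the WT ratio in every library at each time point, and it did not fall by 6 h.

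**Figure D4:**
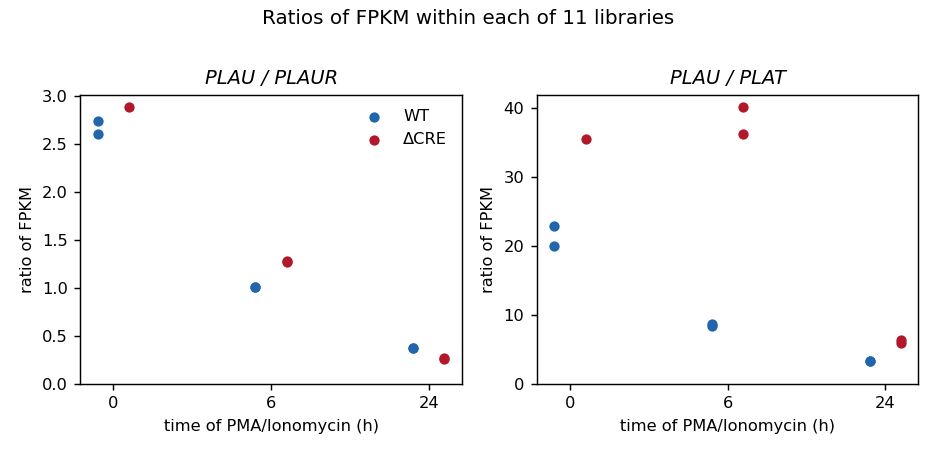
Ratios of FPKM within each of 11 libraries. PLAU to PLAUR and PLAU to PLAT are plotted against hours of PMA/Ionomycin, 1 point per library, WT blue and ΔCRE red. PLAU to PLAT is 36.3 and 40.1 in ΔCRE cells at 6 h against 8.38 and 8.72 in WT cells.

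The 6 members did not vary as 1 unit. Across the 11 libraries, which share groups and time points, Pearson's r of log2(FPKM + 1) was 0.96 between PLAUR and ANXA2 and 0.95 between PLAUR and SERPINE2, but 0.18 between PLAU and PLAUR and −0.15 between PLAU and SERPINB2. These values, like those that follow, are descriptions. Among rows with a mean of at least 5 FPKM, the patterns most like PLAU were those of SRM, C8orf33 and UBE2C (r between 0.991 and 0.994), and those most like PLAUR were CDC42SE1, CHMP4B and LAMB3 (r between 0.993 and 0.996). PLAT was most like TMEM92, CDK9 and ARHGAP27 (r between 0.954 and 0.974), and SERPINE2 was most like TRAF1, NIPA1 and CCL20 (r between 0.989 and 0.990). SERPINB2 was most like MLLT6, PLEKHM1 and MAPK8IP3 (r between 0.982 and 0.989), and ANXA2 was most like RNF24, EEF1A1 and CHMP4B (r between 0.967 and 0.975).

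Of 56 other genes of the pathway, all were in the table and 30 were tested. In WT cells 12 of them rose and 3 fell from 0 to 6 h, where 44.4% of all rows were called. The 12 include MMP13 and MMP1, which passed the filter only through stimulated libraries, so their rises are no independent result. The 30 tested genes, these included, had a median log2 difference of 0.21 beside −0.00 over all rows. In ΔCRE against WT cells, 1 was higher and 5, SERPINB9 included, were lower at 6 h (median −0.07 beside 0.01), where 9.83% of all rows were called. At 24 h 2 were higher and 3 were lower (median 0.11 beside 0.01), where 6.33% were called. At 0 h 0 were higher and 1, HIST1H2BK, was lower by limma (5 and 3 at an unadjusted p under 0.05), where 1.69% were called. The share called in WT cells was near that of all rows and does not set the pathway apart. Plasminogen itself (PLG) was at most 0.132 FPKM in the 11 libraries.

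Of 7 serpins of the system, SERPINE2 and SERPINB2 included, 4 were tested. At 6 h in WT cells SERPINE2 rose, as given above, and SERPINA5 (protein C inhibitor) fell (log2 difference −0.72, adjusted p = 0.00442), while SERPINB2 passed the filter only through stimulated libraries and is not counted. None of the 4 passed limma's test between genotypes at 6 h, where 1 had an unadjusted p under 0.05. Of 12 other clade B serpins 4 were tested. SERPINB8 rose and SERPINB6 fell at 6 h in WT cells (log2 differences 1.48 and −0.19). SERPINB9, an inhibitor of granzyme B, was 1.70 and 2.11 FPKM in WT and 0.551 and 0.841 FPKM in ΔCRE cells at 6 h. Its mean of 1.04 FPKM passed the filter only through the WT libraries, so its call at 6 h is no independent result.

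Among 20 genes of plasminogen binding and receptor partners, ANXA2 included, 16 were tested, 5 rose and 1 fell at 6 h in WT cells, no more than the 44.4% called among all rows. The integrin ITGA5, the lipoprotein receptor VLDLR and the integrin ITGA3 rose by log2 differences of 1.35, 0.65 and 0.47. In ΔCRE cells at 6 h ITGA5 was lower (log2 difference −0.67, adjusted p = 5.0e-04), as was HIST1H2BK, a histone H2B gene (−0.33, adjusted p = 0.0303), while the lipoprotein receptor LRP8 was higher (0.34, adjusted p = 0.0116). None of the 16 passed limma's test at 24 h, where 9 had an unadjusted p under 0.05. S100A10, the partner of annexin A2, was between 292.4 and 545.6 FPKM in the 11 libraries and differed between genotypes by 0.04 at 6 h (95% confidence interval −0.12 to 0.19). LRP1, an endocytic receptor that clears complexes of activator and serpin, was between 0.791 and 2.05 FPKM, fell by 0.35 in WT cells at 6 h and differed between genotypes by −0.10 at 6 h (adjusted p = 0.501).

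Of 16 genes listed as plasmin substrates and downstream proteases, with inhibitors such as TFPI2 among them, 8 were tested. At 6 h in WT cells 7 passed the test as higher and none as lower, where 44.4% of all rows were called. TFPI2, a Kunitz inhibitor of plasmin, rose by a log2 difference of 2.14 and the laminin chain LAMB3 by 1.60. Of the 7, the collagenases MMP13 and MMP1 passed the filter only through stimulated libraries. MMP13 was 0.135 and 0.141 FPKM in WT cells at 0 h and 11.4 and 11.6 FPKM at 6 h, and MMP1 was 0.0331 and 0.104 FPKM at 0 h and 2.75 and 2.48 FPKM at 6 h. In ΔCRE cells MMP13 was lower at 6 and 24 h (log2 differences −1.63 and −0.97, adjusted p = 1.5e-04 and 0.00309), and so was the membrane-bound protease MMP14 (−1.09 and −0.80, adjusted p = 1.4e-04 and 0.00122). At 24 h MMP1 and fibronectin (FN1) were higher in ΔCRE cells (0.73 and 0.59, adjusted p = 0.00407 and 0.00261), and TFPI2 was lower (−0.53, adjusted p = 0.00698). Of the 3 pseudogenes of ANXA2 only ANXA2P2 was tested, and it did not pass limma's test between genotypes at any time. At 24 h its log2 difference was 0.33 (adjusted p = 0.209 by limma, with an unadjusted p under 0.05). ANXA2P1, at most 0.370 FPKM in the 11 libraries, and ANXA2P3, at most 0.0669 FPKM, were not tested.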

How the data were processed

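RNA was measured in 12 libraries of MDA-MB-231 cells, grouped by genotype, time point and replicate number as the labels give them. The authors prepared stranded mRNA libraries, aligned reads to hg19 by TopHat and quantified genes by Cufflinks. The deposited values are FPKM, 1 per library and row, for 24331 rows. The annotation behind the rows and any scaling between libraries are not given in the sources used here. All 12 columns were used. The names of 2 ΔCRE columns, replicate 2 at 6 h and at 0 h, hold a digit in place of a letter and were read as the labels that no other column took.

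From the deposited FPKM, log2(FPKM + 1) was computed. Rows with a mean of at least 1 FPKM were fitted by limma 3.58.1, run under R 4.3.3 (lmFit, contrasts and eBayes with a trend, 1 model of 6 groups, 11 libraries), with Benjamini-Hochberg adjustment. The script was tested on simulated data. Replicates are separate biological samples according to the study. The p-values rest on the spread between replicates within groups, pooled over the 11 libraries and moderated across rows. The ΔCRE group at 0 h, with 1 library, adds nothing to that spread. FPKM keep no read numbers, so no counting interval was computed. Replicate numbers were not treated as pairs in the main fit. Deviations from group means correlated at r between −0.068 and 0.202 in 10 pairs of groups, 2 of them over 0.1. Whether equal numbers mark samples handled together is not given in the sources used here. Neighbours are tested rows that start within 5 Mb. Promoters came from RefSeq and were located in GRCh37.

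The members and gene lists were chosen with earlier results of these data known. Named from the lists were, per list and comparison, up to 4 genes with the largest log2 difference among those called, with S100A10, PLG, LRP1 and the ANXA2 pseudogenes always named. Some genes of the lists are not reported here and were left out of their counts. TFPI2 at 24 h was named after its value was seen, to complete a count. Other settings tried were no filter, a mean of at least 5 FPKM, a pseudocount of 0.1, rescaling to TPM, quantile normalization, no trend, all 12 libraries, a replicate block, separate fits of a time point and leaving out each library. Cuffdiff was not run, as it needs the reads. Python 3.11.15, pandas 2.3.3 and matplotlib 3.10.9 were used for the rest.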

Additional observations from a re-analysis of the deposited data

Results flagged for a closer look

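The response of PLAT differed between the genotypes in a test of the difference itself. From 0 to 6 h the log2 difference between the responses was −1.47, and from 6 to 24 h it was 0.80. Both values come from limma's fit of 11 libraries, and the first rests on 1 ΔCRE library at 0 h. The second was close to the threshold (adjusted p = 0.0468 by limma) and passed it in 4 of 19 alternative settings.

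The library labelled ΔCRE 0 h replicate 1, which was left out of the main comparisons, had more of 3 members than either WT 0 h library: PLAUR at 119.3 FPKM, SERPINE2 at 27.6 FPKM and ANXA2 at 3377 FPKM. These values come with an FPKM sum of 1423335, above the 651080 of the next library, and with 8969 FPKM of gut epithelial markers. As a share of that sum PLAUR was 0.00838%, below the 0.0129% and 0.0122% of the WT 0 h libraries. ANXA2 was 0.237%, below their 0.301% and 0.296%. SERPINE2, at 0.00194%, was still above their 0.00175% and 0.00180%.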

How the results depend on the processing

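Of 947 values of single members under the alternatives, 862 kept their direction and their side of the threshold, 54 lost a call, 14 gained one and 17 changed sign. PLAT passed the test as lower in ΔCRE cells at 6 h in all 20 alternatives (log2 difference between −1.91 and −1.75) and at 24 h in 19 of 20, the exception being the fit of 12 libraries, which gave −1.02 there with an adjusted p of 0.226. FPKM without read numbers and 2 replicates per group limit the precision, most of all for SERPINB2.

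With all 12 libraries the calls fell to 857, 1221 and 582 rows for WT 6 h against 0 h, 24 h against 0 h and 24 h against 6 h, to 845 for ΔCRE 24 h against 6 h, to 17, 20 and 17 for ΔCRE against WT at 0, 6 and 24 h, and to 4 and 0 for the differences of the responses from 0 to 6 h and from 6 to 24 h (81 rows at an unadjusted p under 0.05 in the last, by limma). Members called were then 2 for WT 24 h against 6 h, 1 for ΔCRE 24 h against 6 h and 1 at 6 h between genotypes, and 0 at 0 h, at 24 h and in both differences of the responses (3, 1, 3 and 1 at an unadjusted p under 0.05 by limma, in the order 0 h, 24 h, 0 to 6 h and 6 to 24 h). ANXA2 changed sign at 0 h (0.46) and in the response from 0 to 6 h (−0.46), as did PLAU in that response (0.23). The library added here is the one that stood apart.

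TPM turned PLAT and ANXA2 in ΔCRE 24 h against 6 h to 0.063 and 0.049 and ANXA2 between genotypes at 6 h to −0.0034. It moved the median of all rows in WT 6 h against 0 h from −0.00 to −0.12, and the share of calls that were higher from 52.5% to 35.0% there, from 43.7% to 64.3% in WT 24 h against 6 h, from 44.6% to 60.7% in ΔCRE 24 h against 6 h and from 37.2% to 24.7% between genotypes at 24 h. Under TPM and under quantile normalization 4 members were called between genotypes at 24 h, PLAU lower and ANXA2 higher added to PLAT and PLAUR. Quantile normalization left 11 rows in the difference of the responses from 6 to 24 h, and eBayes without trend left 8. Without trend 0 members were called there and 0 at 0 h (5 and 4 at an unadjusted p under 0.05 by limma), and without a filter 0 members were called there (4 at an unadjusted p under 0.05 by limma) and 47 rows in the response from 0 to 6 h. Separate fits called 717 rows at 6 h and 324 at 24 h, with 1 member at 24 h.

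The replicate block, for which no pairing is stated, called more rows between genotypes than the main fit. These were 655 rows and 2 members (PLAUR added) at 0 h, 1805 rows at 6 h, and 1407 rows and 4 members at 24 h. The main fit called 190, 1107 and 712 rows at these times. With the block, 2 members were called in the difference of the responses from 6 to 24 h (PLAU added) and 72 rows in that from 0 to 6 h.

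Leaving out each library in turn gave between 106 and 159 rows and 0 members at 0 h (3 to 4 members at an unadjusted p under 0.05 by limma), between 321 and 1097 rows and 1 to 2 members at 6 h, between 165 and 717 rows and 1 to 3 members at 24 h, and between 3 and 21 rows and 0 to 1 members in the difference of the responses from 6 to 24 h (4 to 6 members at an unadjusted p under 0.05). Values of members that changed sign in such fits ranged from −0.0938 to 0.0147 for ANXA2 at 0 h, from −0.0435 to 0.0484 for ANXA2 at 6 h, from −0.0123 to 0.0962 for ANXA2 in the response from 0 to 6 h, from −0.249 to 0.0123 for SERPINB2 in WT 24 h against 6 h, from −0.0343 to 0.469 for SERPINB2 in ΔCRE 24 h against 6 h, from −0.127 to 0.0943 for SERPINB2 at 24 h and from −0.113 to 0.0509 for PLAT in ΔCRE 24 h against 6 h. The cause of these changes was not tested.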
